A study of Homo sapiens with 6 samples.

Results

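Among the 753 genes of the deposited table, 49 carried an annotation to the synapse, the axon, the dendrite, the neuron projection or the neuronal cell body and were kept as synapse, axon and neuron projection genes. They were chosen by annotation and symbol: 68 rows held at least 1 of 9 Gene Ontology component terms, and 19 of these were left out because they belong to gene families such as protocadherins, solute carriers and ion channels, to the cilium, axoneme or microtubule genes, or to a short list of named genes. CPLX2, which the choice names, also holds such a term. The libraries came from AsPC-1, an established human pancreatic cancer cell line, with 3 samples that received a control lentivirus (control) and 3 that received a lentivirus carrying a short hairpin RNA against the membrane serine protease TMPRSS4 (shTMPRSS4). All 6 samples were therefore infected cells of 1 line, and the labels do not say whether the replicates were separate cultures. TMPRSS4 itself was not analysed here, so the knockdown was not checked and the group names follow the labels.

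A synapse is the contact at which a neuron passes a signal on. Vesicles dock at the active zone of the presynaptic side, SNARE proteins with complexins and synaptotagmins fuse them with the membrane when calcium enters, and receptors anchored in a scaffold receive the transmitter on the other side. Guidance and adhesion proteins bring the axon to its target. Much of this equipment also serves endocrine and other epithelial cells, where it moves granules, membrane and signalling receptors, so the annotation names where a protein has been found in neurons and not the identity of the cells measured here.

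Every listed gene had been selected by the authors for a difference in these same libraries. In the authors' deposited table, the smallest absolute log2 fold change was 1 and the highest false discovery rate 0.0490. Each test below is therefore a description of selected genes and not independent evidence. The depth recovered from counts and FPKM (a level scaled by gene length and depth) ran from 30200000 to 57200000 reads per library, lowest in control replicate 3, which is also the single library with the code L3 in its label. Of 5 epithelial marker genes none was listed, so the labelled cell type could not be checked. Of 18 neuron markers 2 were listed, TUBB3 and MAP2, both left out of the 49 as microtubule genes. TUBB3, a neuronal tubulin, rose to 88.0 ± 2.26 FPKM in shTMPRSS4 from 40.1 ± 1.43 FPKM in control (SD, n = 3; edgeR quasi-likelihood adjusted p = 2.24e-08). MAP2, a dendritic microtubule protein, rose from 0.557 ± 0.205 to 1.14 ± 0.176 FPKM (edgeR adjusted p = 0.00456). The other 16 neuron markers and all 11 neuroendocrine markers were not analysed here. Of 8 fibroblast markers FAP was listed (0.40 to 0.58 FPKM in control, 1.55 to 1.95 in shTMPRSS4) and of 6 endothelial markers PECAM1 (0.38 to 0.66 and 0.15 to 0.24), while none of 8 immune markers was. Their part in the results was not tested.

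The comparison of shTMPRSS4 with control asks how these neuronal-type genes differ when TMPRSS4 is targeted. Of the 49 members 33 (67.3%) were higher and 16 lower in shTMPRSS4, beside 73.7% higher and 26.3% lower among all listed genes. The active zone protein RIMBP2, the pentraxin receptor NPTXR, olfactomedin 2 and semaphorin 6A rose most among members above 1 FPKM, and the abundant vesicle and signalling genes SYNGR2, CALB2, PPP1R1B, ANKRD27 and PTK2B fell. FPKM values did not overlap between the groups for 47 members, as for 97.7% of all listed genes. The edgeR quasi-likelihood test, fitted over all listed genes with Benjamini-Hochberg adjustment and a threshold of 0.05, covered 47 members and passed 31 as higher and 15 as lower. It passed 99.1% of the 705 listed genes tested, 73.3% as higher and 25.8% as lower, so the members' share is near the background. The exception was TIMP2, and DRD2 and ERBB4 had too few counts to be tested. In bulk RNA, fewer cells of a type and less RNA per cell cannot be told apart. With scaling factors computed only from the listed genes, TMM gave 8 members higher and 16 lower, DESeq2 11 and 16, and upper-quartile scaling 24 and 16, so directions hold relative to the recovered depth.

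**Figure D1:**
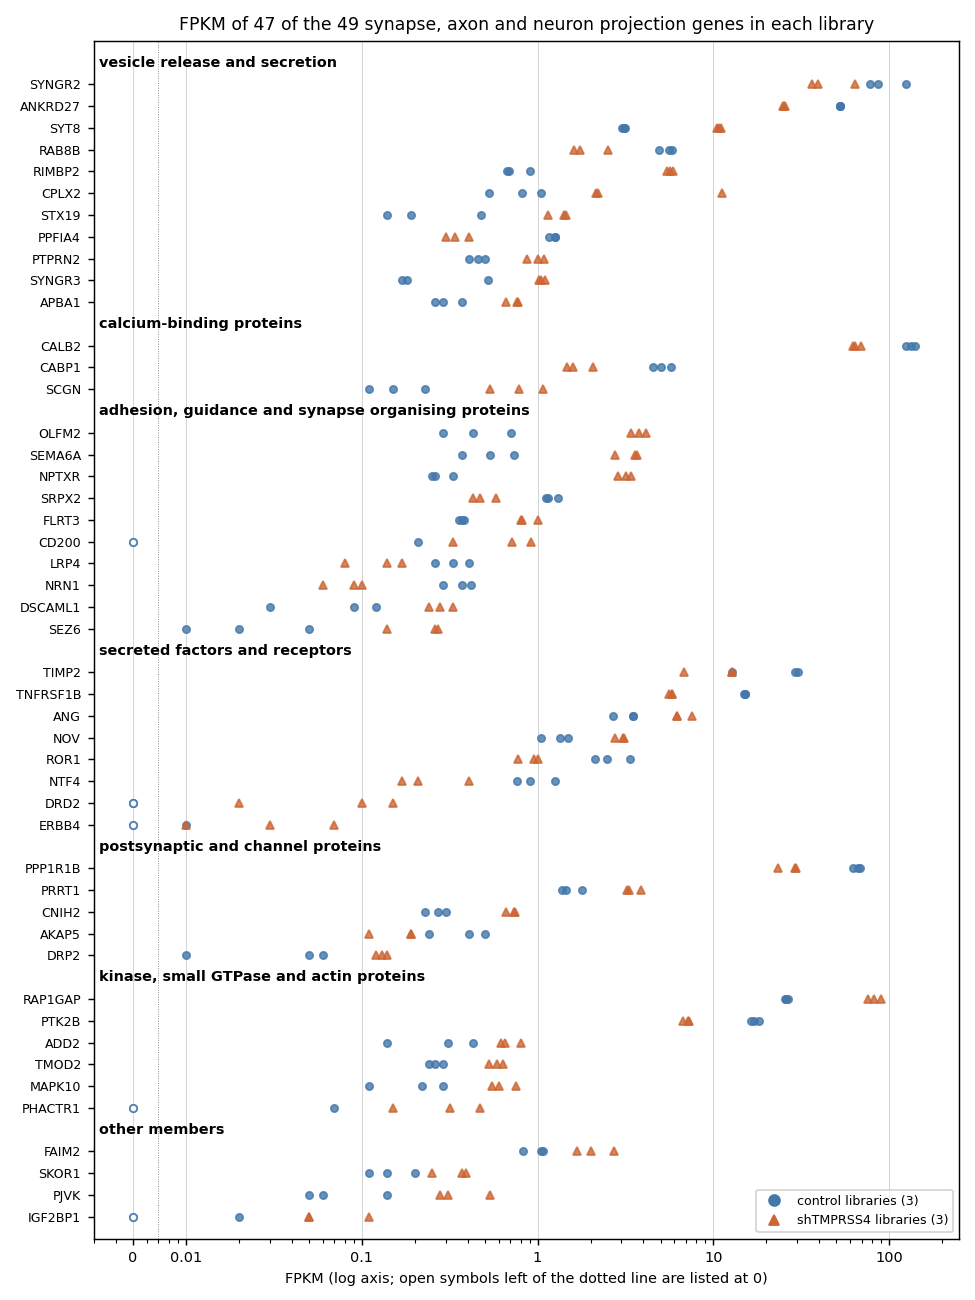
FPKM on a log axis for 47 of the 49 members in 3 control libraries (circles) and 3 shTMPRSS4 libraries (triangles), grouped by role and ordered by mean level, with open symbols for libraries listed at 0. The groups overlap for TIMP2 and ERBB4, and the most abundant members, CALB2 and SYNGR2, are lower in shTMPRSS4.

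Most members were scarce transcripts. The median member had a mean of 0.722 FPKM over the 6 libraries, against 1.10 FPKM for all listed genes, and 19 members (38.8%) lay under 0.5 FPKM, against 32.9% of listed genes. The median control level was 0.27 FPKM for the 33 higher members and 5.26 FPKM for the 16 lower ones. In shTMPRSS4 these medians were 0.80 and 1.84 FPKM, and for the mean over the 6 libraries 0.518 and 3.55 FPKM. Direction is defined against the control level in genes selected for change, so part of the gap in control is built in. Over all listed genes the medians were 0.42 and 2.97 FPKM in control and 1.36 and 1.21 FPKM in shTMPRSS4. Of the 5 members averaging 20 FPKM or more, 4 were lower and RAP1GAP was higher, while of 71 listed genes at that level 40 were higher and 31 lower. The median log2 fold change was 2.00 for higher members and -1.33 for lower ones, against 1.65 and -1.38 for the listed genes in each direction. These medians are over all members, including 1 gene with no control counts, and they describe a list selected for change.

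**Figure D2:**
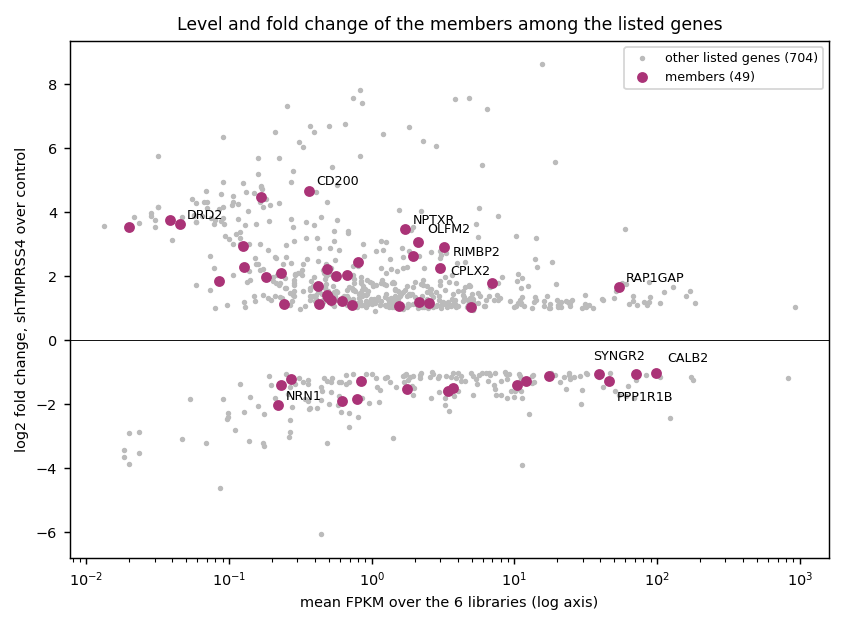
Log2 fold change of depth-scaled counts plus 0.5 (vertical axis) against the mean FPKM over 6 libraries (log axis). The 49 members and the 704 other listed genes are drawn. For genes with no control counts the value rests on the added 0.5 and is no bound. The empty band around 0 is the authors' selection, and the members at the right-hand side lie below 0 except RAP1GAP.

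Promoter sequence was available in RefSeq for 29 of the 49 members (GRCh38.p14). The 250 bases before the annotated start are shown for the 3 largest rises among the named members with an entry, OLFM2, RIMBP2 and STX19, for the largest fall among the named members, PPFIA4, and for SKOR1, the 1 member holding the TTCAGCACC element of the repressor REST; the last 2 were added after the values were seen. REST silences many neuronal genes through the RE1 element, of which TTCAGCACC and GGACAG are the left and right parts, and E-boxes of the form CANNTG bind neurogenic and other helix-loop-helix factors. Each sequence runs 5′ to 3′ on the gene's strand, and capitals mark CANNTG, TTCAGCACC and GGACAG on either strand.
OLFM2 (chr19:9936516-9936765, minus strand): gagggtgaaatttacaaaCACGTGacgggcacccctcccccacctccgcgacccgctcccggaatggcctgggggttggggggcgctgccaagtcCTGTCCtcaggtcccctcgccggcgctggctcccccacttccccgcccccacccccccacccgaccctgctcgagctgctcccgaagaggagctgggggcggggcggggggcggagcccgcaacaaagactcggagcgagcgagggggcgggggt
RIMBP2 (chr12:130715574-130715823, minus strand): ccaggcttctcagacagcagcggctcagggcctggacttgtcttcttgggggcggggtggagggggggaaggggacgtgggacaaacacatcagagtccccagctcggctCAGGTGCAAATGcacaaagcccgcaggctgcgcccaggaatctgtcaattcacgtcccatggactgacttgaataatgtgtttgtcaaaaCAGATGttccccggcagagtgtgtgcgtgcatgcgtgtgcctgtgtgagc
STX19 (chr3:94028598-94028847, minus strand): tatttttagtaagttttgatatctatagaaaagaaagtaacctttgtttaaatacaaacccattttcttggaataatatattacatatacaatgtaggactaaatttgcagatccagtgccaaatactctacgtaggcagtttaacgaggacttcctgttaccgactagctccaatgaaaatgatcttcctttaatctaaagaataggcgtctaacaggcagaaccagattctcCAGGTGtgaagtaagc
PPFIA4 (chr1:203026241-203026490, plus strand): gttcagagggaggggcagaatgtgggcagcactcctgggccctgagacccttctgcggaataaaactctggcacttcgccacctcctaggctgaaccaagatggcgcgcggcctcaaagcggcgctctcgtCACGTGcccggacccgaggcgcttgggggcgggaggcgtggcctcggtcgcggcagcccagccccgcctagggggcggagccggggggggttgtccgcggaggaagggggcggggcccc
SKOR1 (chr15:67825259-67825508, plus strand): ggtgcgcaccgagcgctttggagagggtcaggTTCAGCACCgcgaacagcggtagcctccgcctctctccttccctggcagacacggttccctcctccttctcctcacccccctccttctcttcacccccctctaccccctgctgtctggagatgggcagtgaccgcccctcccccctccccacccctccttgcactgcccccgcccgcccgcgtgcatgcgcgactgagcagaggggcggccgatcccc
OLFM2, which rose, and PPFIA4, which fell, both hold the palindrome CACGTG. RIMBP2 holds 3 CANNTG matches and STX19 1, at position -16 from the start. The RIMBP2 start was not found in any GENCODE release 29 transcript of the gene, and which start is used here was not tested. CANNTG was present in 14 of 29 member windows (48.3%), against 62.2% of 27305 RefSeq windows of the same length, and in 10 of 18 windows of higher members and 4 of 11 of lower ones. TTCAGCACC was in 1 of 29 (3.45%), against 0.3% of all windows, and GGACAG, a short motif, in 8 of 29 (27.6%), against 17.1%. CAGCTG and CATCTG, forms within CANNTG, were each in 2 of 29 (6.9%), against 13.8% and 12.2%. Windows of the lower members were rich in CpG: 10 of 11 had an observed-to-expected CpG ratio of at least 0.6, against 10 of 18 for higher members, 51.6% of 548 listed genes with an entry and 47.4% of all windows. These matches are a description of letters in a window.

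Genes of vesicle release and secretion were the largest group, with 11 members, 7 higher and 4 lower. All 11 passed the edgeR test, beside 99.1% of the listed genes tested, 73.3% as higher. The roles by which members are grouped here were assigned with the values known.

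RIMBP2 (ENSG00000060709, chromosome 12, 130396137 to 130716281), which tethers calcium channels to the active zone scaffold, had 0.90, 0.69 and 0.67 FPKM in control replicates 1, 2 and 3 and 5.69, 5.45 and 5.91 FPKM in shTMPRSS4 replicates 1, 2 and 3. The knockdown libraries lay close together and far above every control. The log2 fold change was 2.93 ± 0.14 (SE), a 7.61-fold rise (edgeR quasi-likelihood adjusted p = 1.1e-08). SYT8 (ENSG00000149043, chromosome 11, 1828307 to 1837521), a synaptotagmin of the family that links vesicles to fusion, had 3.10, 3.15 and 3.01 FPKM in control and 11.07, 10.42 and 10.78 FPKM in shTMPRSS4. Its replicates lay close together in both groups, and it rose 3.47-fold (log2 1.80 ± 0.03, edgeR adjusted p = 2.21e-07). STX19, a syntaxin without a membrane anchor of the usual kind, had 0.48, 0.19 and 0.14 FPKM in control and 1.46, 1.42 and 1.15 FPKM in shTMPRSS4, a log2 fold change of 2.46 ± 0.53 (edgeR adjusted p = 0.000404). Control replicate 1 was above the other controls yet below every shTMPRSS4 library. STX19 overlaps a gene on the other strand.

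CPLX2 (ENSG00000145920, chromosome 5, 175796310 to 175884020), the complexin that clamps and primes the SNARE complex, had 1.05, 0.82 and 0.53 FPKM in control and 2.15, 2.21 and 11.18 FPKM in shTMPRSS4. All knockdown libraries exceeded all controls, but replicate 3 stood far above the other 2. The log2 fold change was 2.27 ± 0.83 over all libraries (edgeR adjusted p = 0.0376), a 4.82-fold rise. Without shTMPRSS4 replicate 3 it was 1.48, or 2.80-fold, and the edgeR adjusted p was 0.00128. The call was lost without control replicate 1, 2 or 3 (edgeR adjusted p = 0.0928, 0.0857 and 0.106), with the replicate number as a block (0.135), with TMM (0.273) and with upper-quartile scaling (0.0862). Direction was thus the same with and without that library, and the size rested on it.

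The synaptogyrins, 4-pass proteins of vesicle membranes, moved in opposite directions. SYNGR3, the neuronal form, had 0.18, 0.17 and 0.52 FPKM in control and 1.10, 1.04 and 1.02 FPKM in shTMPRSS4 (log2 fold change 2.04 ± 0.51, edgeR adjusted p = 0.000939). Control replicate 3 was high among the controls but below every shTMPRSS4 library. SYNGR2 (ENSG00000108639, chromosome 17, 78168558 to 78173527), the widely expressed form, had 123.65, 86.69 and 77.34 FPKM in control and 36.44, 39.18 and 63.51 FPKM in shTMPRSS4. Replicate 1 was the highest control and replicate 3 the highest knockdown library, and the groups did not overlap. SYNGR2 fell by 1.06 ± 0.32 on the log2 scale (edgeR adjusted p = 0.0264). That call was lost without control replicate 1 (edgeR adjusted p = 0.0758), shTMPRSS4 replicate 1 (0.0626) or shTMPRSS4 replicate 2 (0.0847) and with the replicate block (0.118). SYNGR2 remained far more abundant than SYNGR3 in every library.

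The other 5 genes of the group were PPFIA4, APBA1, PTPRN2, RAB8B and ANKRD27. PPFIA4, a liprin scaffold of the active zone, had 1.25, 1.16 and 1.26 FPKM in control and 0.34, 0.30 and 0.41 FPKM in shTMPRSS4, and fell by 1.82 ± 0.14 on the log2 scale (edgeR adjusted p = 5.66e-06). It is thus opposite in direction to RIMBP2, another active zone protein. APBA1, the Munc18-binding adaptor Mint1, rose from 0.307 ± 0.0569 to 0.73 ± 0.0608 FPKM (SD, n = 3). PTPRN2, a phosphatase-like protein of dense-core granules, rose from 0.457 ± 0.0451 to 0.987 ± 0.111 FPKM, but turned to the lower side under TMM and DESeq2 scaling over the listed genes. RAB8B, a small GTPase of exocytic transport, had 5.60, 4.89 and 5.78 FPKM in control and 2.52, 1.62 and 1.74 FPKM in shTMPRSS4 and fell by 1.49 ± 0.21 on the log2 scale (edgeR adjusted p = 1.45e-05). ANKRD27 (ENSG00000105186, chromosome 19, 32597007 to 32676597), a Rab and SNARE-binding protein of endosomes, had 52.55, 52.54 and 52.64 FPKM in control and 25.18, 24.71 and 25.36 FPKM in shTMPRSS4. The spread within each group was under 1 FPKM, and the gene was 2.10-fold lower (log2 -1.07 ± 0.01, edgeR adjusted p = 1.44e-08).

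Of a wider list of 60 genes of transmitter release and neuroendocrine secretion 5 were listed, and all 5 were higher and passed the edgeR test, beside 73.3% of all listed genes tested that passed as higher. CPLX2, PTPRN2 and SCGN are members. SYT14 was listed at 0 in every control library and at 0.17, 0.19 and 0.18 FPKM in shTMPRSS4 (edgeR adjusted p = 1.82e-05). DOC2B, a calcium sensor of granule release, rose from 0.117 ± 0.0153 to 0.277 ± 0.0379 FPKM (SD, n = 3; edgeR adjusted p = 0.000693). The other 55 genes of that list were not analysed here.

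The group of calcium-binding proteins held 3 members, of which 2 fell and 1 rose, beside 73.7% of all listed genes higher. The term calcium ion binding is held by 5 members, 2 higher and 3 lower, of which SYT8 and LRP4 are grouped elsewhere here. CALB2 (ENSG00000172137, chromosome 16, 71358713 to 71390438), the EF-hand buffer calretinin, was the most abundant member, with 124.71, 132.73 and 139.79 FPKM in control and 62.17, 69.13 and 63.96 FPKM in shTMPRSS4. It was 2.03-fold lower (log2 -1.02 ± 0.07, edgeR adjusted p = 9.03e-08), with a wide gap between the groups. CABP1, a calmodulin-like regulator of calcium channels, had 4.53, 5.02 and 5.76 FPKM in control and 2.07, 1.47 and 1.60 FPKM in shTMPRSS4, a log2 fold change of -1.58 ± 0.18 (edgeR adjusted p = 1.75e-05). SCGN, secretagogin of endocrine cells, had 0.15, 0.23 and 0.11 FPKM in control and 1.08, 0.54 and 0.78 FPKM in shTMPRSS4, a log2 fold change of 2.23 ± 0.40 (edgeR adjusted p = 0.000498). Its rise rests on 24 control counts over 3 libraries, while CALB2 had 16359.

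Of 10 adhesion, guidance and synapse-organising genes 7 rose and 3 fell, and all passed the edgeR test. That test passed 99.1% of the listed genes tested, 73.3% as higher. NPTXR (ENSG00000221890, chromosome 22, 38818452 to 38843982), a membrane pentraxin that gathers AMPA receptors, had 0.26, 0.33 and 0.25 FPKM in control and 2.88, 3.20 and 3.39 FPKM in shTMPRSS4. It rose 11.1-fold (log2 3.47 ± 0.14, edgeR adjusted p = 1.61e-08), more than any other member above 1 FPKM. OLFM2, a secreted olfactomedin found at synapses, had 0.29, 0.43 and 0.71 FPKM in control and 3.76, 4.16 and 3.38 FPKM in shTMPRSS4, a log2 fold change of 3.06 ± 0.38 (edgeR adjusted p = 3.05e-06). SEMA6A (ENSG00000092421, chromosome 5, 116443616 to 116574934), a transmembrane semaphorin that repels growing axons, had 0.54, 0.37 and 0.73 FPKM in control and 3.69, 2.76 and 3.56 FPKM in shTMPRSS4. Its log2 fold change was 2.65 ± 0.31 (edgeR adjusted p = 2.05e-06). For these 3 genes each knockdown library was more than 2 FPKM above every control.

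FLRT3, a ligand of latrophilins and UNC5 receptors that lies within MACROD2 on the other strand, rose from 0.37 ± 0.01 to 0.873 ± 0.11 FPKM (SD, n = 3; edgeR adjusted p = 0.000124). DSCAML1, an immunoglobulin-family adhesion protein, had 0.12, 0.09 and 0.03 FPKM in control and 0.24, 0.28 and 0.33 FPKM in shTMPRSS4. Its 3.93-fold rise became 2.60-fold without control replicate 3. SEZ6, a complement-domain protein of dendrites, had 0.01, 0.05 and 0.02 FPKM in control and 0.26, 0.27 and 0.14 FPKM in shTMPRSS4, from 9 control and 96 knockdown counts. CD200, an immunoglobulin-family ligand that restrains myeloid cells, had 17 counts in control replicate 1 and 0 in the other 2 controls, against 25, 65 and 47 counts in shTMPRSS4. From depth-scaled counts plus 0.5, CD200 was 25.5-fold higher, 77.0-fold without control replicate 1 and 14.7-fold without control replicate 2 or 3. Its log2 fold change was 4.67 from those counts and 2.83 in the edgeR fit, so its size is poorly fixed. Its call was lost with the replicate block (edgeR adjusted p = 0.0988).

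The 3 lower genes of this group were scarce. NRN1, the GPI-anchored neurite factor neuritin, had 0.37, 0.29 and 0.42 FPKM in control and 0.10, 0.06 and 0.09 FPKM in shTMPRSS4, and its fall of 2.03 ± 0.26 on the log2 scale was the steepest of all members (edgeR adjusted p = 0.000736). LRP4, the agrin receptor of the neuromuscular junction, fell from 0.333 ± 0.0751 to 0.13 ± 0.0458 FPKM (edgeR adjusted p = 0.00219). SRPX2, a secreted ligand of the urokinase receptor that promotes synapse formation, fell from 1.19 ± 0.1 to 0.493 ± 0.0777 FPKM (edgeR adjusted p = 0.000231).

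**Figure D3:**
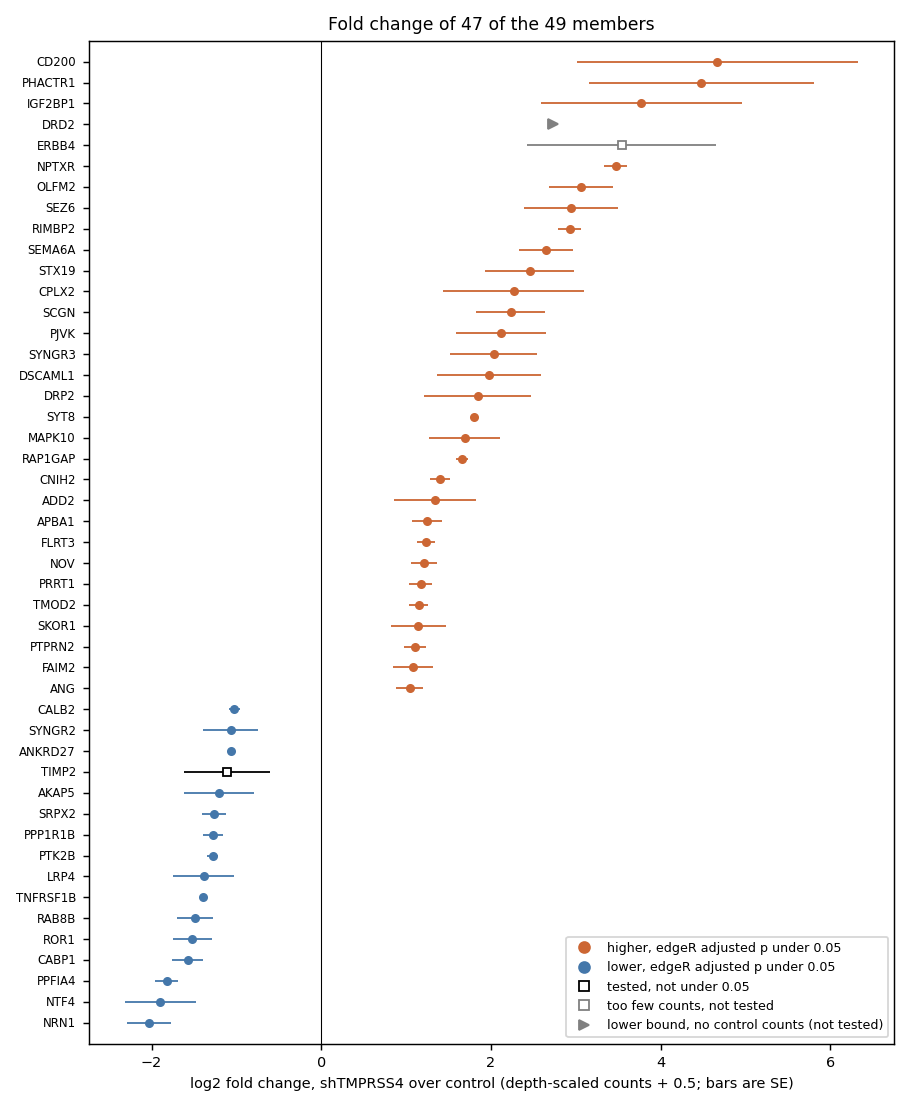
Log2 fold change of shTMPRSS4 over control with its SE for 47 of the 49 members, from depth-scaled counts plus 0.5; filled circles passed the edgeR test, open squares did not or were not tested, and the triangle is the lower bound for DRD2. Bars are short for NPTXR, RIMBP2, SYT8 and RAP1GAP and long for CD200, PHACTR1 and IGF2BP1, which have few control counts.

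Secreted factors and receptors divided evenly, with 4 higher and 4 lower. Of the 8, 5 passed the edgeR test, beside 99.1% of the listed genes tested, and DRD2 and ERBB4 were not tested. TNFRSF1B (ENSG00000028137, chromosome 1, 12167003 to 12209228), the second receptor for tumour necrosis factor, had 15.05, 14.82 and 15.13 FPKM in control and 5.84, 5.56 and 5.78 FPKM in shTMPRSS4. It was 2.62-fold lower (log2 -1.39 ± 0.02, edgeR adjusted p = 4.14e-08), and the replicates of each group differed by less than 1 FPKM. ROR1, a WNT5A receptor with an inactive kinase, had 3.36, 2.47 and 2.11 FPKM in control and 0.95, 1.01 and 0.77 FPKM in shTMPRSS4, a log2 fold change of -1.52 ± 0.23 (edgeR adjusted p = 2.28e-05). NTF4, the neurotrophin ligand of TrkB, fell from 0.977 ± 0.257 to 0.263 ± 0.129 FPKM (edgeR adjusted p = 0.00164), although 33.5% of its 31-base words occur in other genes. The matricellular protein NOV rose from 1.29 ± 0.221 to 2.97 ± 0.178 FPKM (edgeR adjusted p = 5.81e-05).

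ANG, the ribonuclease angiogenin, rose from 3.22 ± 0.453 to 6.64 ± 0.811 FPKM, but 51.5% of its 31-base words occur in other genes and it turned to the lower side under TMM and DESeq2 scaling over the listed genes. TIMP2 (ENSG00000035862, chromosome 17, 78852977 to 78925387), an inhibitor of metalloproteinases, had 12.81, 30.17 and 29.12 FPKM in control and 12.82, 6.83 and 12.78 FPKM in shTMPRSS4. Control replicate 1 lay with the knockdown libraries, so the groups overlapped. The log2 difference was -1.11 ± 0.50 and did not pass (edgeR adjusted p = 0.062). Without control replicate 1 it was -1.51 (edgeR adjusted p = 0.0224), and without shTMPRSS4 replicate 2 it was -0.81, or 1.75-fold. DRD2, the inhibitory dopamine receptor, had 0 counts in every control library and 2, 9 and 13 in shTMPRSS4, at least 6.62-fold higher against a floor of 3 counts over the control group. ERBB4, a neuregulin receptor, had 3, 0 and 0 counts in control and 27, 4 and 12 in shTMPRSS4, a ratio of 11.9 with an exact 95% interval of 3.80 to 59.8 that covers counting error only. Neither receptor exceeded 0.15 FPKM in any library.

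The 6 postsynaptic and channel genes included 4 that rose and 2 that fell, beside 73.7% of all listed genes higher. PPP1R1B (ENSG00000131771, chromosome 17, 39626740 to 39636626), the dopamine-regulated phosphatase inhibitor DARPP-32, had 61.93, 66.13 and 68.05 FPKM in control and 28.95, 23.17 and 29.41 FPKM in shTMPRSS4. It was 2.42-fold lower (log2 -1.27 ± 0.12, edgeR adjusted p = 5.93e-07). The dopamine receptor DRD2, which signals through it in striatal neurons, was near 0 FPKM in all libraries. AKAP5, which anchors protein kinase A at the postsynaptic density, fell from 0.383 ± 0.132 to 0.163 ± 0.0462 FPKM (edgeR adjusted p = 0.00402). The AMPA receptor auxiliary protein CNIH2 rose from 0.267 ± 0.0351 to 0.71 ± 0.0436 FPKM (edgeR adjusted p = 0.00102). PRRT1, another protein of AMPA receptor complexes, rose from 1.54 ± 0.215 to 3.46 ± 0.337 FPKM (edgeR adjusted p = 0.000146), and turned to the lower side under TMM and DESeq2 scaling over the listed genes.

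DRP2, a dystrophin relative, had 0.05, 0.06 and 0.01 FPKM in control and 0.14, 0.12 and 0.13 FPKM in shTMPRSS4, a 3.59-fold rise that was 2.34-fold without control replicate 3. It was uniform in the knockdown libraries and uneven in control.

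Among 6 kinase, small GTPase and actin genes 5 rose and PTK2B fell, beside 73.7% of all listed genes higher. RAP1GAP (ENSG00000076864, chromosome 1, 21596215 to 21669363), which switches off the small GTPase Rap1, had 25.80, 25.57 and 26.50 FPKM in control and 75.69, 81.44 and 89.09 FPKM in shTMPRSS4. This was the largest gain in FPKM of any member, 3.15-fold (log2 1.66 ± 0.07, edgeR adjusted p = 2.26e-09). PTK2B (ENSG00000120899, chromosome 8, 27311482 to 27459391), the calcium-sensitive focal adhesion kinase relative PYK2, had 16.92, 18.17 and 16.25 FPKM in control and 6.69, 7.30 and 7.12 FPKM in shTMPRSS4. It was 2.43-fold lower (log2 -1.28 ± 0.06, edgeR adjusted p = 1.11e-07). MAPK10, the neuronal JNK isoform, rose from 0.207 ± 0.0907 to 0.633 ± 0.104 FPKM (edgeR adjusted p = 0.000854).

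The actin genes in this group were scarce. ADD2, the spectrin-actin linker beta-adducin, had 0.14, 0.31 and 0.43 FPKM in control and 0.62, 0.65 and 0.81 FPKM in shTMPRSS4 (edgeR adjusted p = 0.00563). TMOD2, the neuronal tropomodulin that caps actin filaments, rose from 0.263 ± 0.0252 to 0.587 ± 0.0551 FPKM (edgeR adjusted p = 0.000349), and turned under TMM and DESeq2 scaling over the listed genes. PHACTR1, an actin and phosphatase regulator, had 5 counts in control replicate 2 and 0 in the other 2 controls, against 51, 33 and 14 counts in shTMPRSS4 (edgeR adjusted p = 0.00213). Its 22.3-fold rise from depth-scaled counts plus 0.5 was 52.4-fold without control replicate 2 and 14.5-fold without control replicate 1 or 3. The log2 fold change of PHACTR1 was 4.48 from those counts and 3.89 in the edgeR fit.

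All 5 remaining members rose, beside 73.7% of all listed genes. FAIM2, a membrane inhibitor of Fas-induced death in neurons, rose from 0.983 ± 0.134 to 2.13 ± 0.531 FPKM (edgeR adjusted p = 0.00118). SKOR1, a SKI-family corepressor, rose from 0.15 ± 0.0458 to 0.337 ± 0.0757 FPKM (edgeR adjusted p = 0.00553). FAIM2 and SKOR1 turned under TMM and DESeq2 scaling over the listed genes. PJVK, pejvakin of hair cells and auditory neurons, rose from 0.0833 ± 0.0493 to 0.377 ± 0.142 FPKM on 11 control counts (edgeR adjusted p = 0.0031). IGF2BP1, an RNA-binding protein of mRNA transport, had 6, 0 and 0 control counts and 14, 27 and 11 in shTMPRSS4 (edgeR adjusted p = 0.00701). Its rise from depth-scaled counts plus 0.5 was 13.7-fold, and 29.8-fold without control replicate 1. The log2 fold change was 3.77 from those counts and 2.82 in the edgeR fit.

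**Figure D4:**
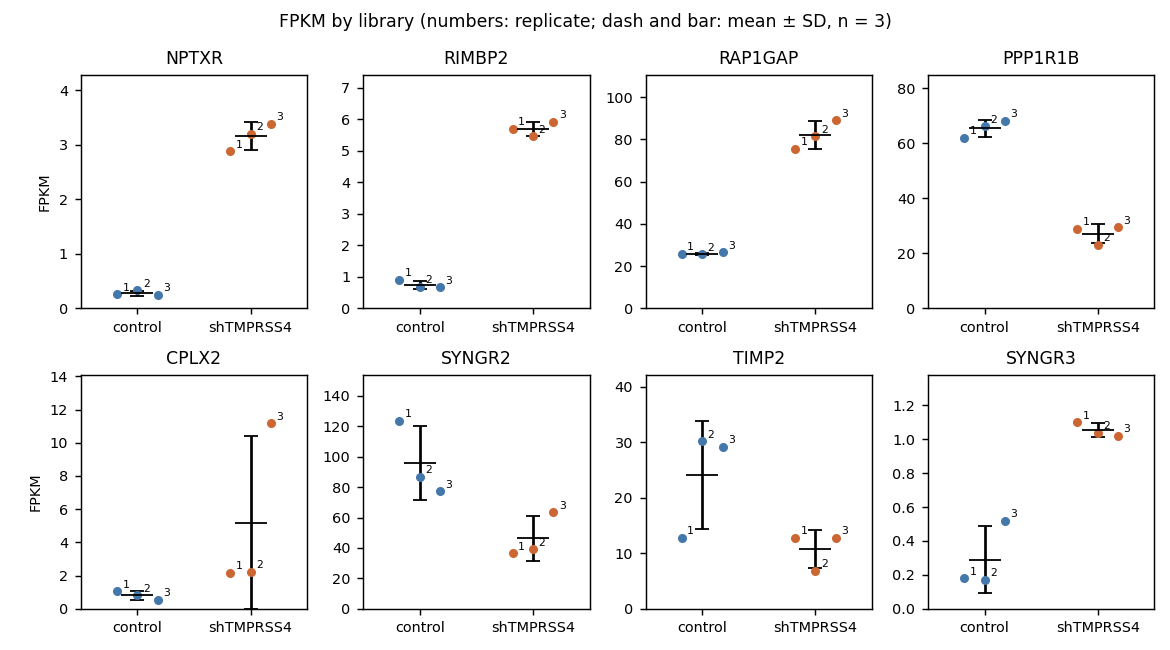
FPKM of 8 members in each library with the mean and SD of 3 libraries per group; the numbers are replicates. NPTXR, RIMBP2, RAP1GAP and PPP1R1B are even within groups, whereas CPLX2 is high in shTMPRSS4 replicate 3, SYNGR2 in control replicate 1 and SYNGR3 in control replicate 3, and TIMP2 is low in control replicate 1.

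By annotated place, higher members outnumbered lower ones at the synapse (13 of 19), axon (10 of 14), dendrite (11 of 15), neuronal cell body (9 of 14), neuron projection (5 of 8) and postsynaptic membrane (4 of 5), and both terminal bouton genes were higher. The postsynaptic density had 4 higher and 4 lower and the synaptic vesicle 3 and 3. A gene can hold several of these terms, so the counts overlap, and 73.7% of all listed genes were higher. Replicates were about as even as elsewhere in the table. Over members with a group mean of at least 1 FPKM the median coefficient of variation was 8.44% in control (17 members) and 10.1% in shTMPRSS4 (22 members), beside 9.24% and 8.58% for all listed genes. For 8 members the fold moved by more than 1.5 times when some library was left out (CPLX2, CD200, PHACTR1, IGF2BP1, DRD2, ERBB4, DSCAML1 and DRP2, each with at most 119 control counts), and none changed direction. The protocol describes no step that marks the strand, and 32 of the 49 members, as 408 of the 753 listed genes, overlap a GENCODE gene on the other strand, so reads of such pairs may not be told apart.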

How the data were processed

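The deposited table holds gene-level read counts, FPKM, log2 fold changes and false discovery rates (adjusted p-values) made by the authors, for 753 genes that all pass an absolute log2 fold change of 1. Bowtie 0.12.2 appears in the submitters' processing notes together with mm8 and mm9, which are mouse builds, whereas the identifiers are human Ensembl genes. The alignment reference is therefore uncertain, and neither the counting tool, the annotation nor the authors' test was given in the sources used. Because the table is a selection, library depth was recovered from the ratio of counts to FPKM over 159 genes with at least 200 counts. Its absolute scale came from 12 genes with a single transcript in GENCODE release 29. The deposited counts were tested with edgeR 4.0.16 (R 4.3.3; quasi-likelihood, robust, filterByExpr, recovered depth as library size), with Benjamini-Hochberg adjustment over 705 genes and a threshold of 0.05. Log2 fold changes are differences of mean log2(depth-scaled count + 0.5), with the SE over 3 against 3 libraries. DESeq2 1.42.0, limma 3.58.1 on log2 FPKM, other scalings, filters and left-out libraries were alternatives, and the upper-quartile scaling was added after seeing the data. The fit was also run on simulated counts in which most genes were unchanged. The listed genes were selected for change, so error rates from that simulation do not carry over to these calls. p-values measure only the spread between these samples, which may be technical. Intervals and floors cover counting error only.

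Genes were named by a rule: CPLX2, the 8 largest rises and 6 largest falls among members whose groups do not overlap and whose higher group averages at least 1 FPKM, up to 4 members with the highest FPKM in each role list (6 of those in no list), and members of the release list. The other members are given because every member is accounted for. The members, lists and roles were chosen with earlier results of these data known. Coordinates are GENCODE release 29 (GRCh38), and promoters are from RefSeq. Some genes are counted but not reported here by name.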

Additional observations from a re-analysis of the deposited data

How the results depend on the processing

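Scale mattered most. The median log2 fold change of the listed genes tested was 1.29 on the recovered depth, 0.09 with TMM, 0.16 with DESeq2 size factors and 0.62 with upper-quartile scaling. Listed genes passing numbered 699, and 357 with TMM, 394 with DESeq2 size factors and 456 with a minimum of 1 FPKM, where fewer genes were tested. Members passing as higher numbered 31, and 8, 11 and 13 in those settings. Those passing as lower numbered 15, and 16, 16 and 12 in those settings. The members' median log2 fold change was 1.23 over the 47 tested, 0.0276 with TMM, 0.0761 with DESeq2 size factors, 0.56 with upper-quartile scaling, 1.04 with the FPKM minimum, and 1.02 and 0.33 in limma with 0.1 and 1 added to FPKM. ANG changed direction with TMM (-0.16) and DESeq2 size factors (-0.13), and PTPRN2 likewise (-0.10 and -0.0657); FAIM2, PRRT1, SKOR1 and TMOD2 also turned there, and no member turned in the other settings. With both TMM and DESeq2 size factors, SYNGR3, SCGN, FLRT3, ADD2, CNIH2, APBA1, NOV, MAPK10, DSCAML1, CD200, DRP2, IGF2BP1 and PJVK kept their direction but did not pass. With TMM, FLRT3 had a log2 fold change of 0.0276 (edgeR adjusted p = 0.913) and ADD2 0.148 (0.899), and STX19 did not pass. TIMP2 passed in several alternatives, among them DESeq2 on the recovered depth (adjusted p = 0.000749) and TMM (0.0156). Leaving out each library in turn gave 698 to 708 listed genes, 31 to 32 higher and 14 to 15 lower members, and a median of 1.23 to 1.32.

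Same-numbered libraries did not deviate together over 698 listed genes (correlations -0.0236, -0.037 and -0.00983). These genes were selected for a difference between the groups, so the correlations cannot settle whether the numbers pair the samples. With the replicate number as a block 682 listed genes passed, with 29 members higher and 14 lower, and the median stayed at 1.23. Few counts limit DRD2, ERBB4, IGF2BP1, PHACTR1 and CD200 most.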

Other observations

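Terms outside the choice of members, read after their values were seen, gave further groups. All 4 members annotated to axon guidance (RAP1GAP, SEMA6A, FLRT3 and DSCAML1) were higher, beside 73.7% of all listed genes. SNARE binding was held by 5 listed genes, of which 4 are members: ANKRD27 was lower and SYT8, STX19 and CPLX2 higher. Of 7 members annotated to the cell surface 5 were lower, beside 26.3% of all listed genes. That term is held by 44 listed genes, whose directions were not counted. SYNGR2 and TIMP2, both lower, lie 679.5 kb apart on chromosome 17, and control replicate 1 was the highest control library for SYNGR2 and the lowest for TIMP2. SRPX2, which was lower, and DRP2, which was higher, lie 544 kb apart on the X chromosome.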
